A study of Mus musculus with 20 samples.

Results

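Complement is a cascade of plasma and tissue proteins that marks particles for removal by phagocytes. Its classical pathway opens when C1q binds a target, its lectin pathway opens when collectins or ficolins do, and both assemble a C3 convertase from C4 and C2 that cleaves C3. The alternative pathway forms a convertase from C3 and factor B with the help of the protease factor D, and most plasma components come from the liver, C1q from macrophages and factor D from fat cells. Complement proteins are also found in follicular fluid of the ovary.

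The 9 complement genes described here were taken as a list of symbols by a rule that used no measured value, though with earlier results of these data known, and all 9 were found among the 54838 genes of the count tables. They are the 3 chains of C1q (*C1qa*, *C1qb*, *C1qc*), the convertase components *C2*, *C3* and *C4b*, the factor D gene *Cfd*, the C1 inhibitor gene *Serping1* and the receptor of the fragment C3a, *C3ar1*. RNA of whole ovaries from 20 female mice aged 77 days was sequenced from the 3' end, with 5 mice in each of 4 groups. The ctrl mice came from an unselected line and the FL1 mice from the Dummerstorf line selected over many generations for high fertility, and each line was sampled in estrus and in diestrus. The genotype was labelled WT for ctrl and FL1 for FL1, while the source label named the FL1 line for all 20 samples, so the line of each sample was taken from its title, and no measurement here checks it. The stage was read from vaginal cytology. Both lines descend from the same outbred founder stock, so the mice within a line are not genetically identical, and effects of selection and of drift between the lines cannot be told apart. Ovaries were freed of fat, tunica albuginea and oviduct before extraction.

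The libraries held 5991223 to 10352718 counts, with a median of 6957533. The tissue was labelled ovary, and all 5 oocyte markers, all 6 luteal markers and 5 of 6 granulosa markers had counts in every library. Of the 5 neutrophil markers, *S100a8* and *S100a9* had counts in every library, at 1.28 and 1.73 CPM on average. *Ly6g*, from the same list, had none in any library. Of the 4 oviduct markers only *Wfdc2* was counted in every library. Ctrl library 5 in estrus stood apart, with a mean distance of 100.9 from the other ctrl libraries in estrus against 77.6 to 82.6 for those libraries, as root of the summed squared differences in log2 CPM. Calls of the 9 genes that change without it are given with both values.

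Levels are given as CPM, which are counts divided by the TMM-scaled depth of the library. Since a 3' library yields reads near the end of a transcript whatever its length, CPM of different genes were set side by side without division by length. *Serping1*, whose product blocks the C1 proteases, had the highest level of the 9 genes, with 188 ± 41.6 CPM (mean ± SD, n = 20 libraries), above 94.1% of the 14154 genes tested over all libraries. *C2* followed with 92.4 ± 41.3 CPM and *C3* with 81.4 ± 40.0 CPM, above 85.2% and 82.8% of tested genes. The C1q chains lay close together, at 47.2 ± 14.4 CPM for *C1qa*, 36.0 ± 7.42 CPM for *C1qb* and 33.6 ± 9.64 CPM for *C1qc*. *C3ar1* (13.0 ± 4.71 CPM) and *Cfd* (12.2 ± 17.5 CPM) were below the median of tested genes, which was 22.0 CPM. *C4b* was the weakest expressed, with 2.08 ± 1.19 CPM. Counts per library ran from 4 to 44 for *C4b* and from 2 to 377 for *Cfd*, which limits the precision of these genes, and from 857 to 2324 for *Serping1*.

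**Figure D1:**
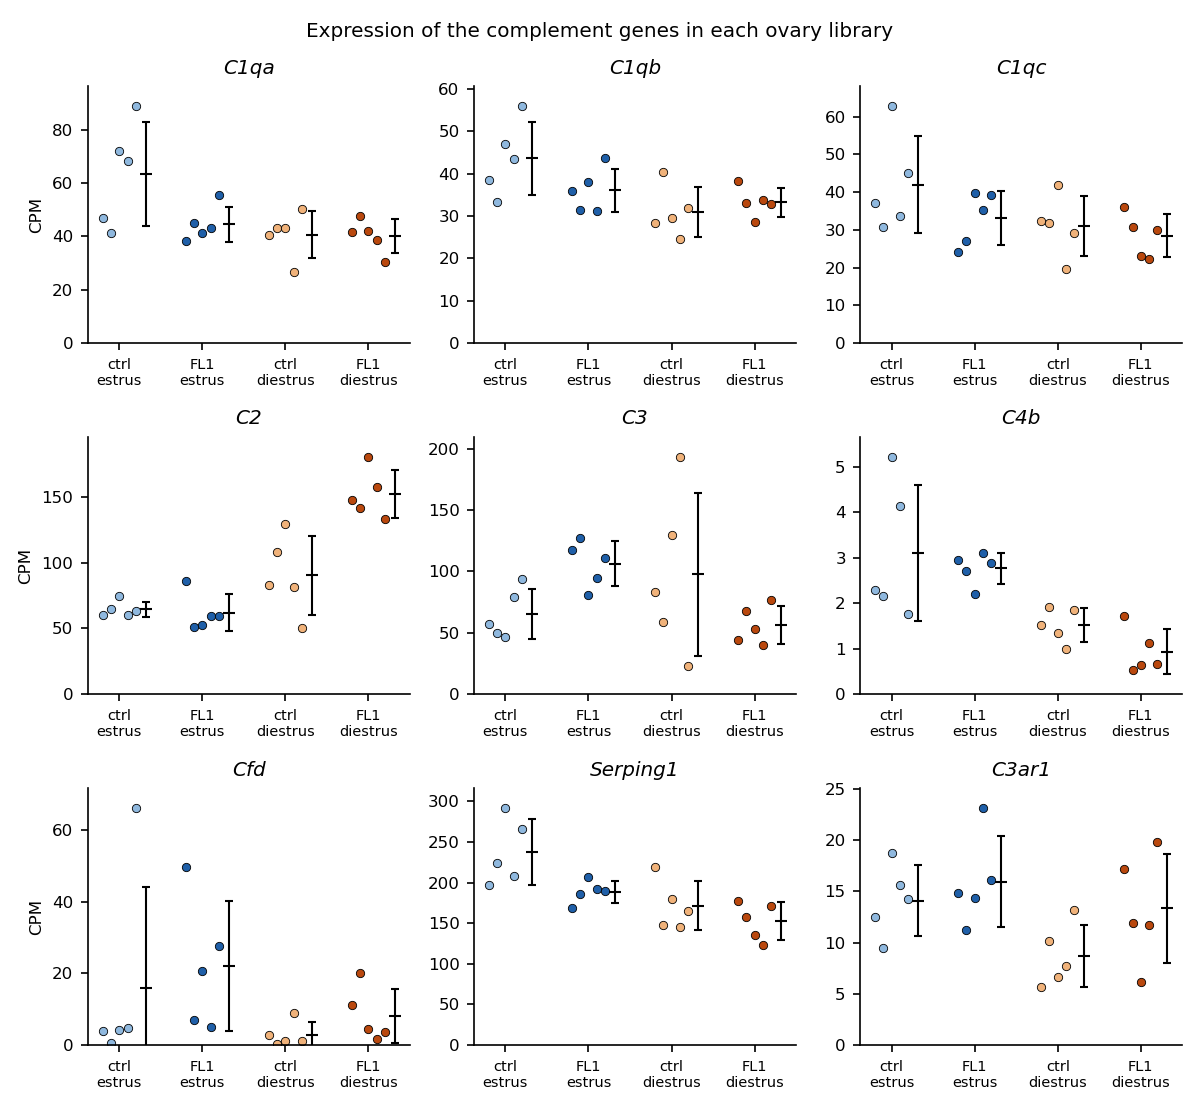
Expression of the 9 complement genes in CPM (vertical axes, each from 0) in the 4 groups, with 1 point for each of the 5 libraries of a group and a bar for mean ± SD. *C2* in FL1 in diestrus lies above all other groups' libraries, *C3* in ctrl in diestrus runs from 22.7 to 194 CPM, and a single ctrl library in estrus carries 66.3 CPM of *Cfd*.

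The lines were compared within each stage and the stages within each line, with edgeR's quasi-likelihood test over all genes and Benjamini-Hochberg adjustment (called at an adjusted p of at most 0.05). Between the lines in estrus, 0 of 9 genes were called by edgeR, 3 had an unadjusted p of at most 0.05, and 2.33% of all 13374 genes tested were called. DESeq2 and limma-voom each called 1 there, *C3*, among 647 and 430 calls over all genes. Between the lines in diestrus, 1 of 8 tested genes was called, *C2*, where 4.11% of all genes were called and 2.29% were higher in FL1, and *C4b* was not tested because its counts were too low. Between the stages in ctrl, 0 of 9 were called by edgeR with 2.85% of all genes called, while 7 had an unadjusted p of at most 0.05. DESeq2 called 1 there, *Serping1*, among 788 calls over all genes. Between the stages in FL1, 4 of 9 were called against 15.9% of all genes, with *C2* higher in diestrus, as were 8.49% of all genes, and *C3*, *C4b* and *Serping1* lower, as were 7.42%. The median log2 fold change of the 9 genes was -0.19 between the lines in estrus and 0.04 in diestrus, and -0.49 between the stages in ctrl and -0.25 in FL1. Over all genes tested, these medians lay between -0.01 and 0.01. Counts at an unadjusted p, here and below, stand without the share of all genes at that threshold, which was not counted. Each group took part in 2 of these comparisons, so the comparisons share libraries and are not independent of each other.

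**Figure D2:**
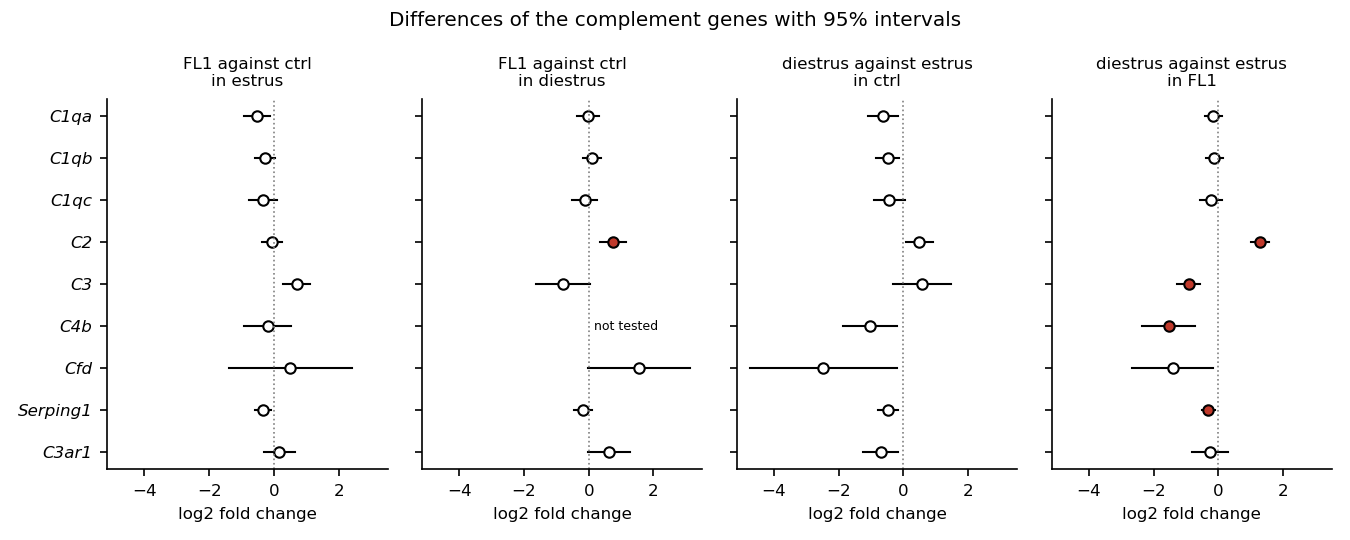
Log2 fold change of the 9 complement genes (points) with its 95% interval (lines) in 4 comparisons, FL1 minus ctrl in the left panels and diestrus minus estrus in the right panels. Filled points are genes called at an adjusted p of at most 0.05, which are *C2* between the lines in diestrus and *C2*, *C3*, *C4b* and *Serping1* between the stages in FL1.

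C1q is the recognition molecule of the classical pathway, built from an A, a B and a C chain. The 3 chain genes lie side by side on the minus strand of chromosome 4 (GRCm38), *C1qb* at 136880129 to 136886187, *C1qc* at 136889804 to 136893065 and *C1qa* at 136895917 to 136898803. None of the 3 was called in any comparison. *C1qa* was measured at 46.8, 41.4, 72.0, 68.1 and 88.9 CPM in ctrl in estrus and at 38.2, 44.8, 41.3, 43.1 and 55.5 CPM in FL1 in estrus. In diestrus the ctrl libraries had 40.4, 43.0, 42.9, 26.6 and 50.4 CPM and the FL1 libraries 41.6, 47.7, 42.2, 38.8 and 30.3 CPM. Thus 3 ctrl libraries in estrus lay above all others, and the remaining groups overlapped.

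For *C1qa* the log2 fold change of FL1 against ctrl in estrus was -0.51 ± 0.19 (SE), with a 95% interval of -0.91 to -0.11 and an adjusted p of 0.196 by edgeR. Diestrus against estrus in ctrl gave -0.64 ± 0.21 (adjusted p = 0.141, edgeR). The other chains gave values of the same sign in these comparisons. *C1qb* had 43.6 ± 8.64 CPM (SD, n = 5) in ctrl in estrus, 36.0 ± 5.16 CPM in FL1 in estrus, 30.96 ± 5.85 CPM in ctrl in diestrus and 33.3 ± 3.46 CPM in FL1 in diestrus. *C1qc* followed the order 41.9 ± 12.9, 33.1 ± 7.10, 30.9 ± 7.996 and 28.4 ± 5.72 CPM in the same groups. Between the stages in ctrl, *C1qb* gave -0.49 ± 0.16 (adjusted p = 0.142) and *C1qc* -0.43 ± 0.22 (adjusted p = 0.374). In 1 fit of all 20 libraries, which shares the estimate of spread among the groups, *C1qa* and *C1qb* were called in this comparison (adjusted p = 0.0375 and 0.0401), whereas over the 7 alternative settings their adjusted p ran up to 0.171 and 0.222. Over all genes, the fit of all 20 libraries made 909 calls there, against 380 in the edgeR fit of the 10 libraries. In FL1, the intervals of the stage difference were -0.42 to 0.12 for *C1qa*, -0.37 to 0.14 for *C1qb* and -0.57 to 0.12 for *C1qc*. Between the lines in diestrus, *C1qa* gave -0.02 with an interval of -0.35 to 0.32, and *C1qb* and *C1qc* gave 0.10 and -0.13.

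The chains also varied together among mice of the same group. After subtraction of the group means, Pearson's r over the 20 libraries was 0.69 for *C1qa* with *C1qb*, 0.54 for *C1qa* with *C1qc* and 0.56 for *C1qb* with *C1qc* (rho 0.64, 0.52 and 0.54), and values within a library share its depth and cell content. Among all 14154 genes, *Ccr2* (r = 0.84), a chemokine receptor of monocytes, and *Orai2* (r = 0.84), a calcium channel subunit, were the most like *C1qa*. *Csf1r* (r = 0.76), the receptor of macrophage growth factor, and *H2-Ab1* (r = 0.74), an MHC class II chain, were the most like *C1qb*. *Slc15a2* (r = 0.81), a peptide transporter, and *Grrp1* (r = 0.80) were the most like *C1qc*.

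Macrophage markers differed between the groups as well, but not in 1 direction. The summed level of the 11 macrophage markers was 237 to 366 CPM in ctrl in estrus, 307 to 555 CPM in FL1 in estrus, 179.7 to 327 CPM in ctrl in diestrus and 225 to 558 CPM in FL1 in diestrus. *Lyz2* added the most to this sum, with 181 CPM on average. Of the 10 macrophage markers tested in estrus, 4 were higher and 6 lower in FL1, with a median log2 fold change of -0.38. *Lyz2*, the strongest expressed of them, was higher in FL1 in both stages (log2 fold change 1.10 and 1.31, adjusted p = 0.0107 and 0.0250), whereas *Cx3cr1* was lower in FL1 in estrus (-0.85, adjusted p = 0.0386). *Cd68* and *Mpeg1* were higher in FL1 in diestrus (0.79 and 0.88, adjusted p = 0.0467 and 0.0125). In ctrl, *Cd68* was lower in diestrus than in estrus (-0.82, adjusted p = 0.0437). In whole ovaries, fewer cells of a type and less RNA per cell cannot be told apart, and the part of macrophage number in the C1q levels was not tested.

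Promoter sequences are shown for 2 of these neighbouring genes, which varied together, with motif letters in capitals. They are the 250 bases before the start site in RefSeq (GRCm38.p6), 5' to 3' on the minus strand, at chr4:136886201-136886450 for *C1qb* and chr4:136892915-136893164 for *C1qc*. The RefSeq table held 5 of the 9 genes. In GENCODE M21, *C1qc* begins at 136893065, inside its window, so the 2 start sites differ and positions below count from that of RefSeq.
C1qb: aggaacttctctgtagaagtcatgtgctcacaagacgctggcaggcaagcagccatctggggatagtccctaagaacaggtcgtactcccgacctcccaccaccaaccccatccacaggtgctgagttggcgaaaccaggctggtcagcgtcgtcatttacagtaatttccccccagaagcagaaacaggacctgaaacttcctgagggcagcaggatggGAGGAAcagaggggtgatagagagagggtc
C1qc: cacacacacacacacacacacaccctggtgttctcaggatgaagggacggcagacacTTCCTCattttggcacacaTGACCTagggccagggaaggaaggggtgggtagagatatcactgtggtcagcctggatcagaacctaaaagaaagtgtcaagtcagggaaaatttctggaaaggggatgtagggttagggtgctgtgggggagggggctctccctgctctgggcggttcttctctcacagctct
The capitals in *C1qb* mark GAGGAA at -30 to -25, the core letters of PU.1 sites, a factor of macrophages and other blood cells. In *C1qc* they mark the same motif on the other strand, TTCCTC, at -193 to -188, and TGACCT, the other strand of AGGTCA, a core of nuclear receptor sites, at -174 to -169. Searched on both strands, GAGGAA occurred in 23.3% of 32851 promoter windows of this length and AGGTCA in 14.0%. Neither window held TTGCNNAA (C/EBP, 9.56% of windows), an NF-kB consensus (0.980%) or TATAAA (12.4%). A match of letters describes the sequence and does not show binding.

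*C2* encodes the protease of the classical and lectin C3 convertase and lies in the MHC region of chromosome 17 (34862604 to 34898265, minus strand). With edgeR it was the only one of the 9 genes called as higher in diestrus, and the only one called between the lines, where other tools also called *C3*, as given below. Ctrl libraries in estrus had 60.2, 64.5, 74.5, 60.6 and 63.4 CPM, and FL1 libraries in estrus had 86.5, 51.3, 52.9, 59.6 and 59.3 CPM. Diestrus values were 83.5, 108, 129.7, 81.4 and 50.1 CPM in ctrl and 148, 142, 181, 158 and 134 CPM in FL1. Every FL1 library in diestrus lay above every library of the other 3 groups, while both lines overlapped in estrus.

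The rise from estrus to diestrus in FL1 was 2.47-fold (95% interval 2.03 to 2.99, log2 fold change 1.30 ± 0.13, adjusted p = 5.62e-06, edgeR), and its groups did not overlap, which held for 12.2% of genes tested there. It was called in all 7 alternative settings and with each library left out in turn, with log2 fold changes of 1.23 to 1.45. In diestrus *C2* was 1.68-fold higher in FL1 than in ctrl (95% interval 1.27 to 2.22, log2 fold change 0.75 ± 0.19, adjusted p = 0.0382), and groups without overlap made up 5.45% of genes tested. That call held in the 7 alternative settings, but was lost when ctrl library 1 or 4 or any of the 5 FL1 libraries was left out, with adjusted p of 0.0526 to 0.103 and log2 fold changes of 0.68 to 0.79. In ctrl the stage difference was 0.49 ± 0.20 (adjusted p = 0.234), and without ctrl library 5 in diestrus, the lowest, it was 0.65 (adjusted p = 0.0348). Between the lines in estrus it was -0.06 with an interval of -0.36 to 0.24. The test of whether the line difference depended on the stage gave 0.81 ± 0.25 (unadjusted p = 0.00377, adjusted p = 0.193), so a dependence on the stage was not called.

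Markers of the corpus luteum changed in the same comparisons. *Lhcgr*, the receptor of luteinizing hormone, rose from 94.6 ± 19.2 CPM in estrus to 589 ± 145 CPM in diestrus in FL1 (SD, n = 5 each, log2 fold change 2.64, adjusted p = 6.30e-08) and from 65.2 ± 18.0 to 219 ± 114 CPM in ctrl (1.75, adjusted p = 0.0161). In diestrus it was higher in FL1 than in ctrl (1.43, adjusted p = 0.0209). All 6 luteal markers had counts in every library, 5 of 6 rose from estrus to diestrus in FL1, and 1 of 6 was called between the lines in diestrus. Their summed level, to which *Akr1c18* and *Cyp11a1* added the most (10606 and 8773 CPM on average), was 14929 to 38104 CPM in ctrl in estrus, 17174 to 34222 CPM in FL1 in estrus, 27932 to 48306 CPM in ctrl in diestrus and 33339 to 43776 CPM in FL1 in diestrus. Within groups, *C2* and *Lhcgr* had r = 0.48 and rho = 0.13 over 20 libraries. The other luteal markers gave lower values with *C2*, at r = 0.08 for *Cyp11a1*, -0.007 for *Ptgfr*, -0.18 for *Star*, -0.20 for *Hsd3b1* and -0.22 for *Akr1c18*. The part of luteal tissue in the difference of *C2* was not tested. The genes most like *C2* within groups were *Tmem229b* and *Tlcd2* (r = 0.82 for both, rho = 0.66 and 0.60).

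The annotation places other genes over *C2*. *Gm20547*, on the same strand, shares 9 of the 428 bases of the last *C2* exon and 364 words of 31 bases with the ends of *C2* transcripts, so reads there may have gone to neither gene, and it had 0 counts in every library. *Zbtb12*, on the opposite strand, lies inside the *C2* locus and had 58 to 197 counts per library, but shares no base with the last exon of *C2*. The strand setting of the counting is not given in the sources used here.

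*C3* encodes the central protein of all complement pathways and lies at 57203970 to 57228136 on the minus strand of chromosome 17. Its stage difference was called in FL1 and not in ctrl. FL1 libraries had 118, 127, 81.0, 94.6 and 111 CPM in estrus and 43.9, 67.9, 53.2, 40.2 and 76.4 CPM in diestrus. Ctrl libraries had 57.3, 49.97, 46.3, 79.4 and 94.0 CPM in estrus and 83.0, 58.7, 129.6, 194 and 22.7 CPM in diestrus. The FL1 stages did not overlap, which held for 12.2% of genes tested between them, whereas ctrl in diestrus spanned the values of every other group.

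In FL1 *C3* fell to 0.53-fold from estrus to diestrus (95% interval 0.42 to 0.67, log2 fold change -0.92 ± 0.16, adjusted p = 0.00118, edgeR). This call was kept with each library left out, at -1.05 to -0.81, and lost in 1 fit of all 20 libraries (adjusted p = 0.0929), in which the ctrl libraries share the estimate of spread. In ctrl the stage difference was 0.58 ± 0.41 with an interval of -0.32 to 1.47 (adjusted p = 0.573), and 0.18 without ctrl library 4 in diestrus, the highest. In estrus FL1 had 106 ± 18.5 CPM against 65.4 ± 20.5 CPM in ctrl (SD, n = 5 each), a log2 fold change of 0.70 ± 0.19 with an adjusted p of 0.0767. *C3* was called in that comparison by DESeq2 (adjusted p = 0.0178), by limma-voom (0.0154) and with genes kept from 1 count in total (0.0114), and the other 4 alternative settings did not call it (adjusted p up to 0.288). Without ctrl library 5 in estrus, the highest of its group, the difference was 0.87 (adjusted p = 0.0109). In diestrus FL1 against ctrl gave -0.79 ± 0.39 (adjusted p = 0.315), which ran from -1.04 without ctrl library 5 to -0.39 without ctrl library 4. The interaction of line and stage was -1.49 ± 0.49 with an unadjusted p of 0.00567 and an adjusted p of 0.223, so the opposite signs of the line difference in both stages were not called as different.

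Surface epithelium markers changed with *C3* in FL1. Of 5 such markers, *Upk3b*, *Krt19* and *Krt7* fell from estrus to diestrus in FL1 (log2 fold change -0.71, -1.22 and -1.47, adjusted p = 0.0142, 0.00474 and 0.00161), and *Upk3b* was higher in FL1 than in ctrl in estrus (0.69, adjusted p = 0.0468). All 5 had counts in every library, and their sum was 67.7 to 108 CPM in ctrl in estrus, 104 to 189 CPM in FL1 in estrus, 52.9 to 110.4 CPM in ctrl in diestrus and 62.0 to 92.1 CPM in FL1 in diestrus. Within groups *C3* had r = 0.60 (rho = 0.76) with *Krt7* and r = 0.64 (rho = 0.83) with *Fabp4*, a fatty acid binding protein of fat and endothelial cells, but r = -0.11 with *Upk3b*. These were the highest values of their lists. The other epithelial markers had r = 0.35 (*Msln*), 0.21 (*Lrrn4*) and 0.12 (*Krt19*) with *C3*. Other fat markers had 0.49 (*Adipoq*), 0.13 (*Cidec*), 0.04 (*Retn*), -0.14 (*Plin4*) and -0.41 (*Plin1*). *Fabp4* also fell in FL1 (-2.08, adjusted p = 0.000528). The genes most like *C3* over all genes were *Slc12a8* (r = 0.83, rho = 0.62), a transporter, and *Csgalnact1* (r = 0.80, rho = 0.65), an enzyme of chondroitin sulfate synthesis. The part of these cell types in the *C3* levels was not tested.

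**Figure D3:**
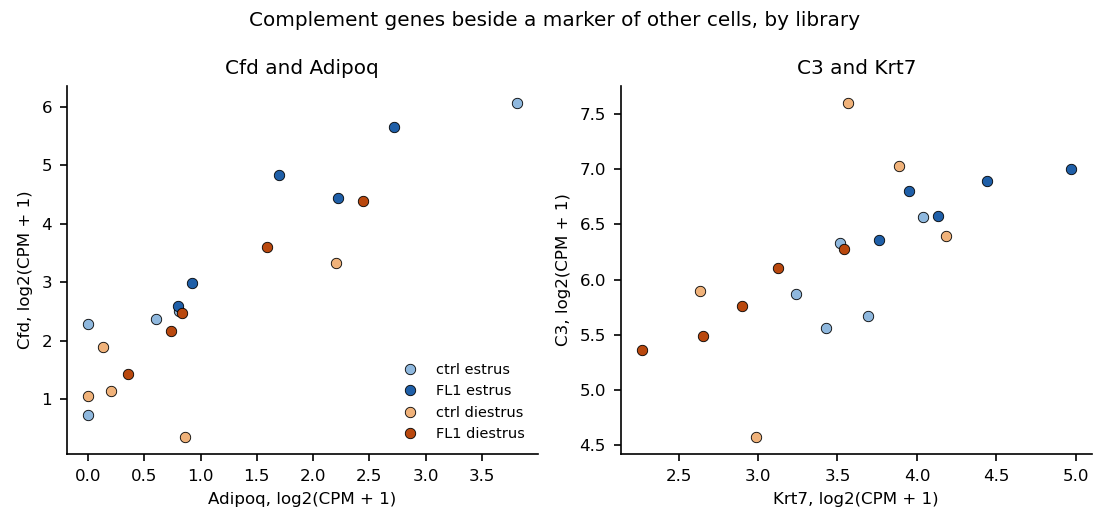
Level of *Cfd* against the fat cell marker *Adipoq* (left) and of *C3* against the epithelial marker *Krt7* (right), both axes as log2(CPM + 1), with 1 point for each of 20 libraries coloured by group. The 2 libraries with the most *Adipoq* also had the most *Cfd*, led by the ctrl library in estrus with 13.0 CPM of *Adipoq* and 66.3 CPM of *Cfd*, while ctrl in diestrus runs from 5.20 to 17.2 CPM of *Krt7* and from 22.7 to 194 CPM of *C3*.

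The promoter of *C3* is shown because it is the only gene called in FL1 whose promoter the RefSeq table held. It covers 250 bases at chr17:57228137-57228386 (GRCm38.p6), read 5' to 3' on the minus strand, with 2 motif matches in capitals.
C3: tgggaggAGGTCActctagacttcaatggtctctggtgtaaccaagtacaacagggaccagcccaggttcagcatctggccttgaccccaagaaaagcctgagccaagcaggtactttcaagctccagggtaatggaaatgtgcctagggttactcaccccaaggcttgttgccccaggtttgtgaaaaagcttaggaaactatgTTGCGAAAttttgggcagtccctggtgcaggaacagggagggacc
The capitals mark AGGTCA, a core of nuclear receptor sites, starting at -243, and TTGCGAAA, a match to the C/EBP letters TTGCNNAA, at -45 to -38. The latter motif was in 9.56% of all promoter windows on either strand. GAGGAA, the NF-kB consensus and TATAAA were not found in this window. No position here was tested for function.

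*C4b* encodes complement C4, the partner of C2 in the convertase, and lies close to *C2* at 34728380 to 34743882 on the minus strand of chromosome 17. It was weakly expressed in all groups and lower in diestrus than in estrus in FL1. Ctrl libraries in estrus had 2.28, 2.15, 5.22, 4.14 and 1.76 CPM, from 10 to 44 counts, and FL1 libraries in estrus had 2.94, 2.70, 2.20, 3.10 and 2.89 CPM. In diestrus ctrl had 1.51, 1.92, 1.35, 0.986 and 1.84 CPM and FL1 had 1.72, 0.523, 0.629, 1.13 and 0.666 CPM, the latter from 4 to 12 counts. No FL1 library in diestrus reached the lowest FL1 library in estrus, and groups without overlap made up 12.2% of genes tested there.

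The fall from estrus to diestrus in FL1 was to 0.345-fold (95% interval 0.195 to 0.608, log2 fold change -1.54 ± 0.39, adjusted p = 0.0125, edgeR). It was called with each of the 10 libraries left out (adjusted p up to 0.0408) and in all 6 alternative settings that tested it. In ctrl the same comparison gave -1.03 ± 0.39 with an adjusted p of 0.194. The lines in estrus differed by -0.19 with an interval of -0.93 to 0.54, and this value turned to 0.06 without ctrl library 3, the highest. The last 300 bases of *C4b* transcripts share 221 words of 31 bases with its neighbour copy *C4a*, which had 0 to 6 counts, so reads may have been lost or split between the copies and the level of *C4b* is uncertain. *Acot2* (r = 0.82), a mitochondrial thioesterase, and *Cep83os* (r = 0.81) were the most like *C4b* within groups. The luteal marker *Akr1c18* had r = -0.84, the most extreme of its list. The other luteal markers had -0.53 (*Cyp11a1* and *Ptgfr*), -0.42 (*Star*), -0.03 (*Lhcgr*) and 0.05 (*Hsd3b1*).

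*Cfd*, also called adipsin, encodes factor D, the protease that cleaves factor B, and lies at 79890853 to 79892655 on the plus strand of chromosome 10. Relative to the mean, its level varied more between mice than that of the other 8 genes, with an SD of 17.5 at a mean of 12.2 CPM. In estrus the ctrl libraries had 3.89, 0.662, 4.17, 4.71 and 66.3 CPM and the FL1 libraries 49.6, 6.90, 20.7, 5.02 and 27.6 CPM. In diestrus ctrl had 2.74, 0.274, 1.20, 9.04 and 1.076 CPM and FL1 had 11.2, 20.005, 4.56, 1.70 and 3.497 CPM. The FL1 libraries in estrus lay above 4 of the 5 ctrl libraries, and the fifth, ctrl library 5, had the highest level of all 20 libraries.

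No comparison of *Cfd* was called. FL1 against ctrl in estrus gave a log2 fold change of 0.50 ± 0.89 with an interval of -1.40 to 2.40 (adjusted p = 0.838), and the 6 alternative settings gave 0.46 to 1.91. Without ctrl library 5 the difference was 2.66 (adjusted p = 0.0313), and without FL1 library 1 it was -0.03. Diestrus against estrus in ctrl gave -2.47 ± 1.06 (adjusted p = 0.273), but -0.27 without ctrl library 5 in estrus (adjusted p = 0.908), so most of this value rests on that library. In FL1 it gave -1.40 ± 0.59 (adjusted p = 0.117), and -0.88 without FL1 library 1 in estrus, the highest. The value in FL1 was called without FL1 library 2 in diestrus (-2.06, adjusted p = 0.0314) and with genes kept from 1 count in total (adjusted p = 0.000598), while the 7 alternative settings ran up to an adjusted p of 0.334. In diestrus the line difference was 1.55 ± 0.73 (adjusted p = 0.288), which ran from 0.89 without FL1 library 2 to 2.55 without ctrl library 4.

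*Cfd* is known from fat cells, and some of the 7 fat markers moved with it from library to library. *Adipoq* and *Cidec*, genes of fat cells, were the genes most like *Cfd* of all 14154, with r = 0.85 and 0.84 within groups (rho = 0.79 and 0.80). *Fabp4* and *Retn* had r = 0.79 and 0.63, whereas the more abundant *Plin4* and *Plin1* had r = 0.02 and -0.24 (rho = -0.14 and -0.15). In ctrl in estrus *Adipoq* had 0, 0, 0.522, 0.753 and 13.0 CPM, and in FL1 in estrus 5.58, 0.900, 3.67, 0.738 and 2.24 CPM. Of the 7 fat markers, 3 had counts in every library and *Lep* in only 3 libraries. The sum of the list, most of it *Plin4*, was 131 to 389.8 CPM in ctrl in estrus, 109 to 209 CPM in FL1 in estrus, 165 to 274.3 CPM in ctrl in diestrus and 171 to 233 CPM in FL1 in diestrus. The part of fat left on the ovaries was not tested.

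*Serping1* encodes the C1 inhibitor, which also restrains the lectin pathway and kallikrein, and lies at 84765387 to 84775444 on the minus strand of chromosome 2. From the highest to the lowest mean, the order was ctrl and then FL1 in estrus, followed by ctrl and then FL1 in diestrus. Ctrl in estrus had 197, 224, 292, 208 and 266 CPM and FL1 in estrus 169, 186, 207, 192 and 189 CPM. Diestrus values were 219, 147, 179.9, 145 and 165 CPM in ctrl and 177, 157, 135, 123 and 171 CPM in FL1. Neighbouring groups in this order overlapped.

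In FL1 *Serping1* fell from 189 ± 13.7 to 153 ± 23.4 CPM (SD, n = 5 each), a log2 fold change of -0.30 ± 0.10 with a 95% interval of -0.52 to -0.09 and an adjusted p of 0.0498. The call lay at the threshold: it was lost in 1 fit of all 20 libraries (adjusted p = 0.134), with the replicate number as a block (0.0675) and without FL1 library 2, 3, 4 or 5 in estrus or library 2, 3 or 4 in diestrus (0.0695 to 0.129). In ctrl the stage difference was -0.47 ± 0.14 (adjusted p = 0.114), and DESeq2 (adjusted p = 0.0491) and 1 fit of all 20 libraries (0.0299) called it, while the highest adjusted p of the 7 settings was 0.156. Without ctrl library 1 in diestrus it was -0.57 (adjusted p = 0.0446). FL1 against ctrl gave -0.33 ± 0.12 in estrus (adjusted p = 0.180) and -0.17 ± 0.13 in diestrus (adjusted p = 0.553).

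Stromal fibroblast markers fell in the same comparison. In FL1 4 of 5, *Pdgfra*, *Dcn*, *Lum* and *Col1a1*, fell from estrus to diestrus (log2 fold change -0.83, -0.55, -0.77 and -1.004, adjusted p = 0.000748, 0.00247, 0.00197 and 9.33e-05), and in ctrl *Pdgfra* and *Col1a1* did (-0.78 and -1.01, adjusted p = 0.0336 and 0.00601). All 5 had counts in every library. Their sum was 1899.6 to 2867 CPM in ctrl in estrus, 1527 to 2234 CPM in FL1 in estrus, 1013 to 1612 CPM in ctrl in diestrus and 959 to 1296 CPM in FL1 in diestrus. *Col6a2* (r = 0.86), a collagen VI chain, and *Fndc10* (r = 0.79) were the genes most like *Serping1* within groups. Of the stromal markers, *Dcn* had r = 0.63, *Col1a1* 0.51, *Lum* 0.42, *Pdgfra* 0.24 and *Tcf21* 0.09. Over the macrophage and surface epithelium markers, r with *Serping1* ran from -0.11 (*Cd14*) to 0.61 (*Lrrn4*). The part of stromal cells in the level of *Serping1* was not tested.

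*C3ar1* encodes the receptor through which C3a acts on leukocytes, and lies at 122847138 to 122856161 on the minus strand of chromosome 6. Its level was 12.5, 9.43, 18.8, 15.6 and 14.2 CPM in ctrl in estrus and 14.8, 11.2, 14.4, 23.2 and 16.1 CPM in FL1 in estrus. In diestrus ctrl had 5.66, 10.1, 6.61, 7.73 and 13.2 CPM and FL1 had 17.2, 11.9, 6.14, 11.7 and 19.8 CPM. All 4 groups overlapped, with ctrl in diestrus the lowest on average. Diestrus against estrus in ctrl gave -0.71 ± 0.26 (adjusted p = 0.178), and in FL1 -0.25 with an interval of -0.80 to 0.29. FL1 against ctrl in diestrus gave 0.63 ± 0.30 (adjusted p = 0.291), and in estrus 0.17 with an interval of -0.30 to 0.64. None was called in the 7 alternative settings. *Fcer1g* (r = 0.73), the common chain of Fc receptors, and *Adcy7* (r = 0.72), an adenylate cyclase, were the most like it within groups. Of the macrophage markers, *Lyz2* and *Cd68* had r = 0.68 and 0.67, *Mrc1* 0.59 and *Mpeg1* 0.57. The others tested were lower, at 0.37 for *Aif1*, 0.32 for *Fcgr1*, 0.31 for *Csf1r*, 0.25 for *Cx3cr1*, 0.19 for *Adgre1* and -0.38 for *Cd14*.

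Among the 9 genes, likeness within groups was thus not uniform. *C1qc* and *Serping1* had the highest value of all pairs (r = 0.75, rho = 0.77), above the pairs of C1q chains. *C2* and *C3* had r = 0.41 but rho = -0.05, so that value rested on few libraries. *C3* and *C4b* had r = -0.47.

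**Figure D4:**
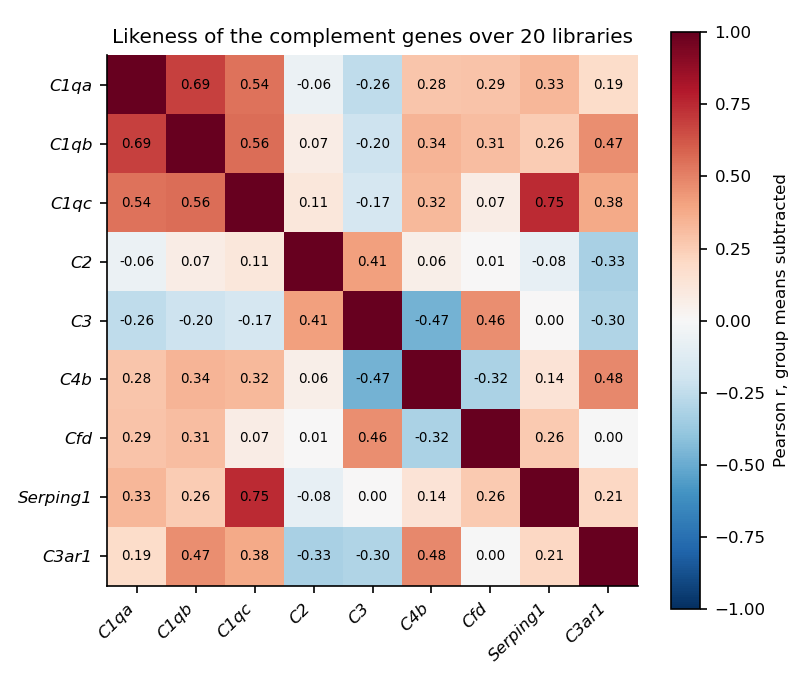
Pearson's r between the 9 complement genes over 20 libraries after the mean of each group was subtracted from log2 CPM, from -1 (blue) to 1 (red). The C1q chains form a block of 0.54 to 0.69, and *C1qc* with *Serping1* reaches 0.75.

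The test of the interaction of line and stage called 0 of the 9 genes by edgeR, with 2 at an unadjusted p of at most 0.05, and 0.0565% of the 14154 genes tested. DESeq2 and limma-voom called none of the 9 either. A difference of the stage effect between the lines was therefore not shown for any of them, although *C2*, *C3*, *C4b* and *Serping1* passed the threshold of edgeR between the stages in FL1 and not in ctrl.

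Of 50 further complement genes, listed by role, 22 to 25 were expressed enough to be tested in a comparison. *C1s1* (67.6 CPM on average) and *C1ra* (30.0 CPM), the proteases bound to C1q, were expressed in every library. *Masp1* (26.5 CPM), a lectin pathway protease, led the lectin pathway list. The alternative pathway was represented by *Cfp* (9.49 CPM), properdin, which stabilises its convertase, whereas *Cfb*, factor B, had 0 to 2 counts per library. Since 171 of the 209 bases of the last *Cfb* exon also belong to exons of *Gm20547*, reads there may have been assigned to neither gene, and no level of *Cfb* is given. Genes of the terminal pathway were near the limit, the highest being *C8g* with 1.90 CPM. The most abundant regulator was *Clu* (974 CPM), clusterin, and *Calr* (1299 CPM), calreticulin, was the highest of the receptors and binding proteins.

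**Figure D5:**
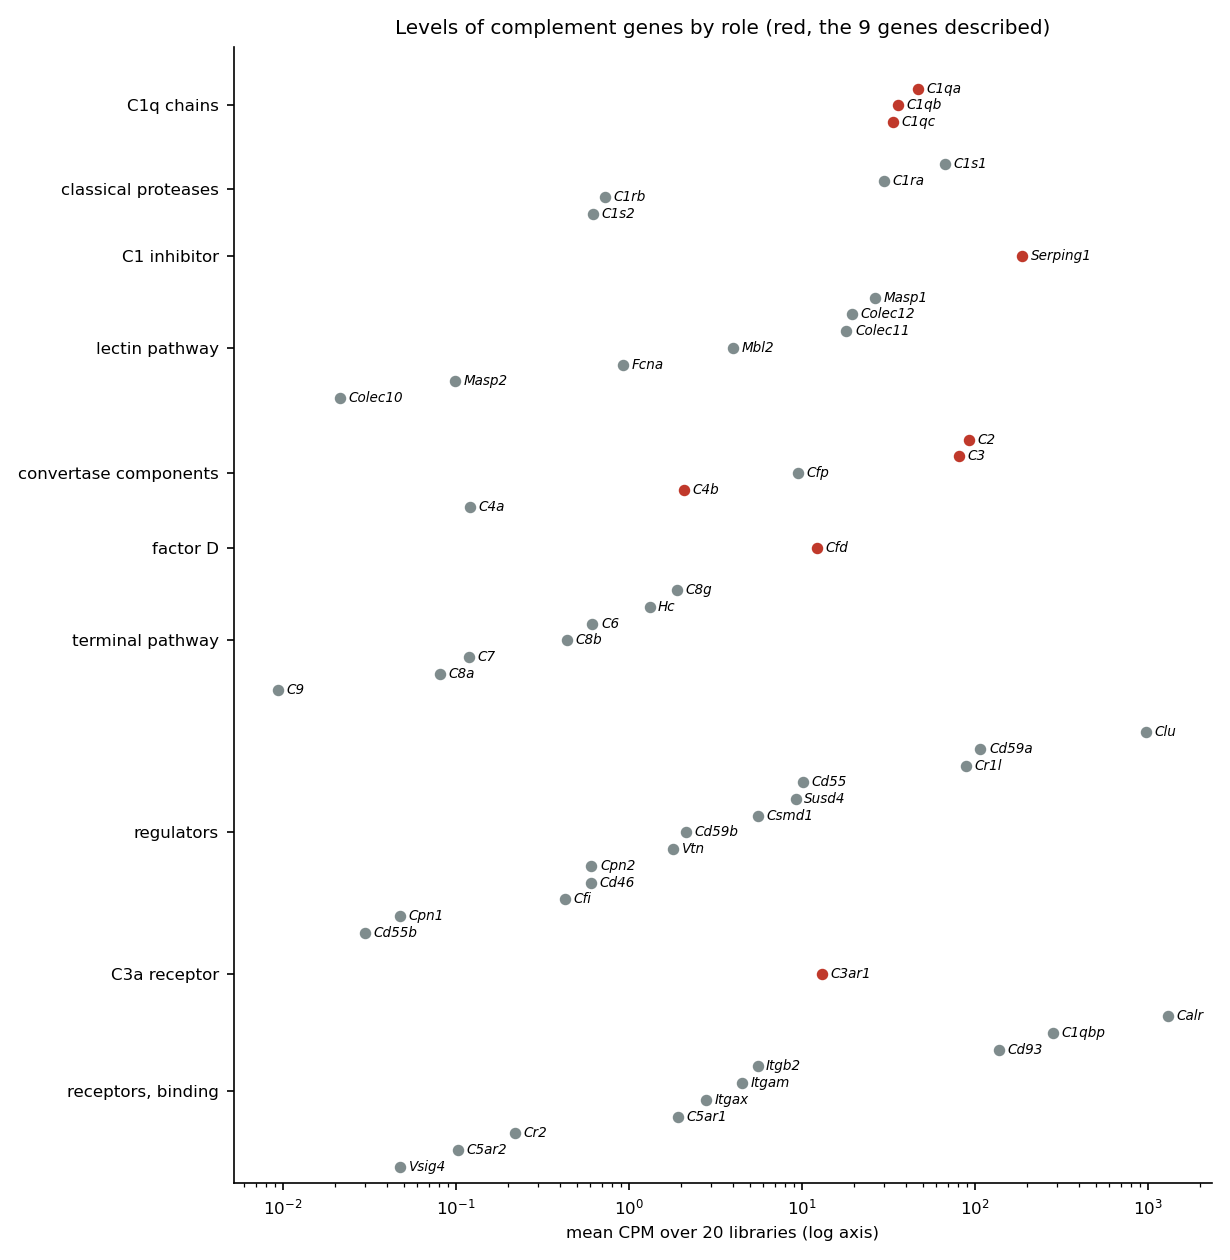
Mean CPM over 20 libraries (log axis) of the 9 complement genes (red) and of 43 of the 50 further complement genes (grey), grouped by role. *Mbl1*, *Fcnb* and *C4bp*, which had no counts, and *Cfb* are among those not drawn, terminal pathway genes lie at or below 1.90 CPM, and *Clu*, *Calr* and *C1qbp* lie above all 9 genes.

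Between the lines in estrus 0 of 22 tested genes of this list were called by edgeR, 2 had an unadjusted p of at most 0.05, and DESeq2 and limma-voom called none. In diestrus 1 of 23 was called, where 4.11% of all genes were, namely *Itgb2*, the beta chain shared by complement receptors 3 and 4, with 8.38 ± 2.56 CPM in FL1 against 2.90 ± 1.00 CPM in ctrl (SD, n = 5 each). It was 2.83-fold higher in FL1 (95% interval 1.83 to 4.38, adjusted p = 0.00970, edgeR), and the groups did not overlap, which held for 5.45% of genes tested. The macrophage markers *Lyz2*, *Cd68* and *Mpeg1* were called as higher in the same comparison, as given above. Of the 10 macrophage markers tested there, 4 were higher and 6 lower in FL1, with a median log2 fold change of -0.36. In ctrl the stages gave 0 of 23 genes called by edgeR, while 7 had an unadjusted p of at most 0.05, with *C1s1* called by DESeq2 and limma-voom. *Colec11* was called there as higher in diestrus when ctrl library 5 in estrus was left out.

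In FL1 6 of 24 genes were called between the stages, against 15.9% of all genes. The lectin pathway genes *Masp1* and *Colec11*, a collectin, were higher in diestrus (log2 fold change 0.56 and 0.85, adjusted p = 0.0486 and 0.0265). *Colec12*, a scavenger receptor of the collectin family, fell by 1.01 on the log2 scale (adjusted p = 0.00745). The regulators *Cd55*, *Susd4* and *Cd59a*, which restrain convertases or the membrane attack complex, also fell (-0.85, -1.17 and -0.31, adjusted p = 0.0303, 0.00882 and 0.0286). Of these, *Colec12* was called in all 7 alternative settings and with each of the 10 libraries left out. In 1 fit of all 20 libraries the calls of *Colec12* and *Cd55* were kept and the other 4 were lost, and without FL1 library 4 in estrus or FL1 library 4 in diestrus those of *Colec12* and *Susd4* were kept. The median log2 fold change of the 24 genes was 0.08 against -0.01 for all genes tested.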

How the data were processed

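Per the labels and the methods of the study, 3' libraries (QuantSeq forward) were sequenced on an Illumina HiSeq, and STAR aligned the reads to GRCm38 (Ensembl annotation). The labels also name Cuffdiff without a role, and the counting tool is not given in the sources used here. The authors deposited raw counts per gene for each library, which were neither normalized nor pooled, and 0 columns of other series were present.

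The list of 9 genes was set by symbol, and it, the other gene lists and the tests were chosen with earlier results of these data known. Symbols came from GENCODE M21. In edgeR 4.0.16 (R 4.3.3), filterByExpr (minimum count 10) selected the genes, which were scaled by TMM and tested by the quasi-likelihood test in the 10 libraries of each comparison, or all 20 for the interaction of line and stage. The standard error is the log2 fold change over the root of F. Likeness used log2 CPM with a prior count of 2. Alternatives were RLE scaling, DESeq2 1.42.0, limma-voom (limma 3.58.1), filters of at least 1 count in total or 10 in every library, 1 fit of all libraries, a replicate block, and each library left out. The steps were tested on simulated data. No 2 libraries of a group agreed within sampling noise (40 pairs, chi-square per gene 6.03 to 42.4).

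Named by rule were all 9 genes, further complement genes called or highest in their role, the 2 genes most like each of the 9, marker genes called beside them or highest in their list, and genes overlapping them. Levels of 3 of the 50 further complement genes are not reported here, although the counts over that list include them.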

Additional observations from a re-analysis of the deposited data

Results flagged for a closer look

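In 36 groups of 5 libraries (9 genes in 4 groups), a single library lay far from the others in 3 groups, by a gap of more than 0.71 of the range of the group, and chance alone flags about 1 in 20 groups. *C2* in FL1 in estrus had 86.5 CPM in library 1, where the next library had 59.6 CPM. *Cfd* in ctrl in estrus had 66.3 CPM in library 5, where the next had 4.71 CPM, and the same library had 13.0 CPM of *Adipoq*, the highest of its group. *Cfd* in ctrl in diestrus had 9.04 CPM in library 4, where the next had 2.74 CPM, and *Adipoq* had 3.62 CPM there, again the highest of its group. The part of fat cells in these values was not tested.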

How the results depend on the processing

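Of the 9 genes, the number called between the lines in estrus was 1 with DESeq2, limma-voom or genes kept from 1 count in total, and 0 to 2 with a library left out. Over all genes, calls there went from 311 to 647, 430 and 477 in these settings, the last of 25942 genes tested. They were 175 to 418 with a library left out. Between the lines in diestrus the number of the 9 genes called was 0 to 1 with a library left out. Over all genes, calls there went from 545 to between 349 and 594. Between the stages in ctrl the number of the 9 genes called was 1 with DESeq2, 3 in 1 fit of all 20 libraries, and 0 to 1 with a library left out. Over all genes, calls there went from 380 to 788 with DESeq2 and to 909 in 1 fit of all 20 libraries. They were 176 to 516 with a library left out. Between the stages in FL1 the number of the 9 genes called was 2 in 1 fit of all 20 libraries, and 3 to 4 with a library left out. Over all genes, calls there went from 2123 to 1520 in 1 fit of all 20 libraries. They were 1582 to 2316 with a library left out. Of the further complement genes, 2 were called between the lines in diestrus with limma-voom, and 1 to 2 with a library left out. Over all genes, limma-voom made 567 calls there. In ctrl 1 of the further complement genes was called between the stages with DESeq2, limma-voom, genes kept from 1 count in total or 1 fit of all libraries, and 0 to 1 with a library left out. Over all genes, limma-voom made 655 calls there. With genes kept from 1 count in total, 524 of 25747 were called. In FL1 2 of the further complement genes were called in 1 fit of all libraries, and 2 to 7 with a library left out. The causes were not tested.

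The direction of *C1qa* between the lines in diestrus turned to 0.0177 with limma-voom (-0.02 in edgeR). With a library left out it ran from -0.137 to 0.0674, *C1qc* from -0.25 to 0.0040 in the same comparison, *C4b* between the lines in estrus from -0.33 to 0.0643, *Cfd* there from -0.0318 to 2.66, and the interaction of *Cfd* from -1.11 to 2.03. Scaling by RLE left the 36 group levels within 1 SD. Of the fits of the 9 genes with another setting and no library left out, 280 kept direction and call, 8 gained a call, 3 lost it and 1 reversed. With a library left out, 504 kept both, 5 gained a call, 14 lost it and 7 reversed.

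Same-numbered libraries are different mice, and the correlation of their deviations was -0.095 to 0.126, above 0.1 in 1 of 20 pairs, so the numbers do not pair the libraries. With the replicate number as a block, the number of the 9 genes called was 0 and 1 between the lines in estrus and diestrus, 0 and 3 between the stages in ctrl and FL1, and 0 for the interaction. *Serping1* was the gene no longer called (-0.31, adjusted p = 0.0675), and no other call of the 9 genes changed. Over all genes, calls went from 380 to 259 between the stages in ctrl. Depth limits *C4b* and *Cfd*, with as few as 4 and 2 counts in a library.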

Other observations

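Markers of the liver, the main source of plasma complement, were near 0 in the ovaries. Of 4 liver markers, *Ahsg* had counts in every library, and the sum of the list was at most 7.80 CPM in any library. None of the tested liver, neutrophil or oviduct markers was called in a comparison.

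Other cell types changed where *C2*, *C3*, *C4b* and *Serping1* did, between the stages in FL1. The endothelial markers *Pecam1*, *Cdh5* and *Kdr* rose from estrus to diestrus (log2 fold change 0.75, 0.59 and 0.79, adjusted p = 0.000332, 0.000427 and 0.000144, edgeR), as did the granulosa genes *Foxl2* (0.55) and *Cyp19a1* (1.38), aromatase, and the luteal genes *Star* (1.56), *Hsd3b1* (0.78), *Cyp11a1* (0.79) and *Ptgfr* (0.86). The red blood cell genes *Hba-a1*, *Hbb-bs*, *Hbb-bt* and *Alas2* rose by 0.91, 1.07, 1.24 and 0.85, and the oocyte gene *Bmp15* fell by 0.81 on the log2 scale. In diestrus *Foxl2* was higher in FL1 than in ctrl (0.53), and so was *Hba-a2* (4.77), whose reads cannot be told apart with certainty from those of its near-identical copy *Hba-a1*. In the qPCR of the paper, the *Foxl2* difference in diestrus had the opposite sign and was not marked as significant. The most abundant granulosa, oocyte and blood markers were *Inha*, *Gdf9* and *Hbb-bs*, with 1549.8, 60.1 and 932 CPM on average. The part of these cell types in the levels of the complement genes was not tested.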
